A study of Mus musculus with 16 samples.

Results

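Direct transcriptional targets of p53 were followed across mouse neural stem cells. They are Cdkn1a, Mdm2, Zmat3, Perp, Ccng1, Trp53inp1, Eda2r, Phlda3, Sesn2 and Aen, taken by name as known targets, 10 of the 57132 genes in the deposited count tables. The cells were grown in self-renewing conditions with growth factors (GF), and the series compared cells given TAPIR (labelled gRNA) with cells not given it (labelled control). RNA-seq of total RNA covered 6 gRNA and 6 control libraries, with libraries 4, 5 and 6 of each group in batch 2 and libraries 1, 2 and 3 in batch 1. Libraries were numbered within a group in accession order, and the numbers are not used as pairs. The labels give no pairing, so whether gRNA and control libraries are paired is not known. Ribosome footprints came from 4 more libraries. All groups share the cell type and the GF condition. The sources used here do not give the strain, the age and source of the cells, the nature of TAPIR or the target of the guide RNA, so the level of a targeted gene was not checked.

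p53 is a transcription factor that accumulates after DNA damage, oncogene activity and other stress, and binds response elements near its target genes. Its targets arrest the cell cycle, repair DNA, induce cell death, adjust metabolism and, through Mdm2, feed back on p53 itself. In neural stem and progenitor cells, p53 is known as a brake on proliferation and self-renewal.

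Depth ran from 8414028 to 19454390 gene counts per library (median 14918917), and 0 of 66 library pairs had identical counts. Levels are CPM, counts scaled to a common library size, from library sizes scaled by the trimmed mean of M-values (TMM). The labels do not say whether the libraries of each group stem from separate cultures, and the p-values then reflect only how far these samples spread, which may be technical. All 8 neural stem and progenitor markers, among them Sox2 and Nes, were detected in the cells, with a summed level of 1181.5 to 1547.8 CPM in batch 2 and 1237.7 to 1972.5 CPM in batch 1. What the batch label stands for is not given. Culture, library preparation and sequencing therefore cannot be told apart in any difference between batches.

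The p53 response element is a pair of decamers, each with a 4-base core. RefSeq promoter windows (GRCm38.p6, 250 bases before to 50 bases after a gene start) matched 7 of the 10 genes in 9 windows; no entry matched Zmat3, Perp and Trp53inp1. A paired site with no spacer and at most 1 mismatch to the p53 consensus lay in the windows of 2 of the 7 genes, against 0.0883% of all 32851 windows. An exact single decamer, counted also inside a paired site, lay in the windows of 4 genes, against 8.36% of all windows, and Eda2r, Phlda3 and Sesn2 had neither. The counts are by gene and the shares by window, so they are not on the same scale. Of 41 other direct p53 targets with windows, 1 had a paired site and 10 had an exact single decamer. The consensus is its own reverse complement, so both strands were covered. The matches are shown because p53 binds its targets through sites of this kind. The 4-base cores are in capitals, and each is read 5′ to 3′ on the strand of the gene. The paired site of Cdkn1a lies at chr17:29090928-29090947 (+ strand) and begins 51 bases before the gene start of that window, and that of Ccng1 lies at chr11:40755462-40755481 (- strand) and begins 195 bases before its gene start. Single decamers lay at chr17:29090906-29090915 (+ strand) for Cdkn1a, chr10:117710935-117710944 (- strand), 186 bases before the gene start, for Mdm2 and chr7:78895937-78895946 (+ strand) for Aen. The Aen decamer begins 121 bases before the gene start of 1 window and 10 bases after that of the other.
Cdkn1a paired site: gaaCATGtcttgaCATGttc
Ccng1 paired site: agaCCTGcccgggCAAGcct
Cdkn1a decamer: ggaCTAGctt
Mdm2 decamer: gaaCTTGcct
Aen decamer: gggCTTGtcc
These are matches of letters in these windows, and no binding was measured.

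All 10 p53 targets were lower in batch 2 than in batch 1 by edgeR's quasi-likelihood test, at a Benjamini-Hochberg adjusted p under 0.05. Of the 17704 genes tested, 61.4% were called, 33.1% as lower and 28.4% as higher. The 10 genes and the related lists were chosen with earlier results of these data known. Their counts beside these shares are therefore a description and not an independent test. The sizes ran from 1.27-fold lower for Sesn2 to 2.69-fold lower for Zmat3, and Perp was all but undetected in batch 2. The median log2 fold change of the 10 genes was −0.80, or −0.75 without Perp, against −0.03 over all genes tested. For 9 of the 10 genes, every batch 2 library lay below every batch 1 library, which was so for 24.3% of all genes tested. Perp passed the filter on low counts through batch 1 alone and so had to differ. Without it, 9 of 9 genes were called lower and 8 of 9 did not overlap. Of the 14376 genes that passed the filter in each batch alone, 26.6% were called lower and 28.2% higher. The count of called genes was 8 of 10 in control libraries alone, without Aen and Sesn2. It was 9 of 10, without Aen, in gRNA libraries alone, without control library 2, and without gRNA library 1 and control library 2, the shallowest libraries. It was 10 of 10 without gRNA library 6 and control library 6. Over all genes, 3807 of 16758 tested were called lower in control libraries alone and 4570 of 17322 in gRNA libraries alone. Those called lower were 5804 of 18375 without control library 2 and 5660 of 18171 without gRNA library 1 and control library 2. Without both libraries numbered 6 they were 6576 of 18223. In bulk RNA, fewer cells of a type and less RNA per cell cannot be told apart.

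**Figure D1:**
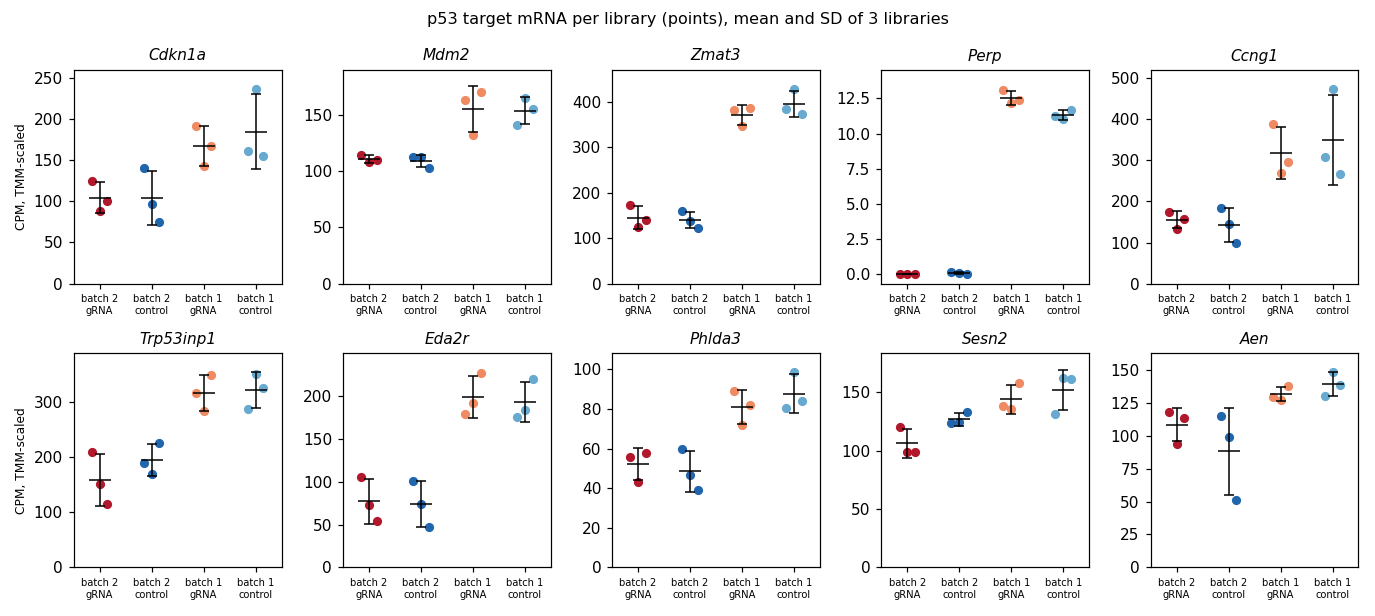
Level of each of the 10 p53 targets (CPM, TMM-scaled, linear axis) by batch and treatment; points are libraries, horizontal bars are means and error bars are SDs of 3 libraries. The batch 2 libraries lie below the batch 1 libraries for every gene but Sesn2, whose highest batch 2 library (133.3 CPM) passes its lowest batch 1 library (131.8 CPM).

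The 3 targets that act on the cell cycle and on p53 itself were all lower in batch 2. In the values that follow, libraries of a group stand in the order of their numbers. Cdkn1a, which encodes the cyclin-dependent kinase inhibitor p21, had 124.8, 87.7 and 100.9 CPM in gRNA and 139.8, 97.2 and 74.8 CPM in control libraries of batch 2, against 191.6, 142.6 and 166.8 CPM in gRNA and 161.3, 236.7 and 155.4 CPM in control libraries of batch 1. The batches came close without overlapping, since control library 4 of batch 2 reached 139.8 CPM and gRNA library 2 of batch 1 had 142.6 CPM. Cdkn1a was 1.68-fold lower in batch 2 (log2 fold change −0.75, SE 0.15, 95% interval −1.08 to −0.42, adjusted p = 7.14e-04 by edgeR, n = 6 per batch).

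Mdm2, the ubiquitin ligase that marks p53 for degradation and is itself induced by p53, had 114.5, 107.8 and 109.6 CPM in gRNA and 112.3, 112.3 and 102.9 CPM in control libraries of batch 2, against 163.1, 131.6 and 170.4 CPM in gRNA and 141.2, 165.0 and 155.1 CPM in control libraries of batch 1. The 6 libraries of batch 2 were closer together in ratio than for any other target, with a highest value 1.11 times the lowest. Perp, all but undetected in batch 2, was left out of this ranking. The log2 fold change of Mdm2 was −0.49 (SE 0.07, interval −0.64 to −0.33, adjusted p = 3.9e-05 by edgeR), or 1.40-fold lower.

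Ccng1, cyclin G1, which brings a phosphatase to Mdm2, had 174.6, 133.0 and 157.9 CPM in gRNA and 183.4, 145.5 and 99.5 CPM in control libraries of batch 2, against 388.0, 269.0 and 296.0 CPM in gRNA and 308.9, 472.2 and 267.1 CPM in control libraries of batch 1. Its libraries spread widely within each batch, with a coefficient of variation of 20.4% in batch 2 and 24.3% in batch 1, and the batches were still apart. Ccng1 was 2.24-fold lower in batch 2 (log2 fold change −1.16, SE 0.17, interval −1.52 to −0.80, adjusted p = 3.27e-05 by edgeR).

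Among the targets linked to cell death, Perp differed in kind from the others. Perp, a tetraspan membrane protein of p53-induced death and of desmosomes, had 0, 0 and 0 reads in gRNA and 2, 2 and 0 reads in control libraries of batch 2, against 13.1, 12.1 and 12.4 CPM in gRNA and 11.2, 11.0 and 11.7 CPM in control libraries of batch 1. Only 2 of 6 batch 2 libraries held a read, and batch 1 held 1025 reads in all. The ratio of the summed counts, scaled by library size, was 273-fold lower in batch 2 (95% counting interval 106 to 1005, which covers counting error only).

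Eda2r, a receptor of the tumour necrosis factor receptor family that binds ectodysplasin A2, had 105.7, 72.8 and 53.9 CPM in gRNA and 101.4, 74.2 and 46.7 CPM in control libraries of batch 2, against 178.6, 191.9 and 226.7 CPM in gRNA and 175.9, 183.5 and 219.5 CPM in control libraries of batch 1. Libraries numbered 4 were the highest and libraries numbered 6 the lowest of batch 2 in both groups, and the batches did not overlap. The log2 fold change of Eda2r was −1.37 (SE 0.18, interval −1.75 to −0.99, adjusted p = 1.19e-05 by edgeR), or 2.59-fold lower.

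Trp53inp1, a stress protein of the nucleus that promotes death and autophagy, had 209.5, 151.7 and 115.6 CPM in gRNA and 190.2, 169.7 and 225.7 CPM in control libraries of batch 2, against 316.3, 284.8 and 349.6 CPM in gRNA and 287.4, 352.1 and 326.3 CPM in control libraries of batch 1. Libraries 6 stood at opposite ends of batch 2, the gRNA library lowest and the control library highest. Trp53inp1 was 1.81-fold lower in batch 2 (log2 fold change −0.86, SE 0.13, interval −1.14 to −0.58, adjusted p = 5.24e-05 by edgeR).

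Phlda3, a pleckstrin homology domain protein that represses Akt, had 55.7, 43.2 and 57.8 CPM in gRNA and 59.9, 46.8 and 39.2 CPM in control libraries of batch 2, against 89.0, 72.1 and 82.2 CPM in gRNA and 80.4, 98.9 and 84.1 CPM in control libraries of batch 1. The batches did not overlap, and the log2 fold change was −0.74 (SE 0.11, interval −0.98 to −0.50, adjusted p = 5.53e-05 by edgeR), or 1.67-fold lower. Aen, a nuclease that enhances apoptosis, had 117.5, 93.8 and 113.1 CPM in gRNA and 114.6, 98.7 and 51.3 CPM in control libraries of batch 2, against 129.4, 127.0 and 137.3 CPM in gRNA and 129.9, 148.2 and 138.7 CPM in control libraries of batch 1.

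For Aen, control library 6 lay far below the other libraries, and the highest batch 2 library (117.5 CPM) was close to the lowest batch 1 library (127.0 CPM). Aen had the largest adjusted p of the 10 genes, 0.0166 by edgeR (log2 fold change −0.47, SE 0.15, interval −0.80 to −0.14), and was 1.38-fold lower. The call was lost without control library 2 (−0.40, adjusted p = 0.051), in gRNA libraries alone (−0.25, adjusted p = 0.0608), in control libraries alone (−0.64, adjusted p = 0.0811) and without gRNA library 1 and control library 2 together (−0.44, adjusted p = 0.0568). Without control library 6 the log2 fold change was −0.32, at an adjusted p of 0.00157.

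The remaining 2 targets act on RNA and on metabolism. Zmat3, a zinc finger protein that binds RNA and is known for effects on splicing and mRNA stability, had 173.7, 123.9 and 139.2 CPM in gRNA and 159.0, 137.6 and 123.5 CPM in control libraries of batch 2, against 382.0, 346.8 and 386.9 CPM in gRNA and 384.8, 429.1 and 374.4 CPM in control libraries of batch 1. The highest batch 2 library, at 173.7 CPM, lay far below the lowest batch 1 library, at 346.8 CPM, a wider gap in ratio than for any other target but Perp. Zmat3 was 2.69-fold lower in batch 2 (log2 fold change −1.43, SE 0.09, interval −1.63 to −1.23, adjusted p = 1.12e-08 by edgeR).

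Sesn2, sestrin 2, which restrains the growth kinase complex mTORC1 when leucine is short, had 120.6, 99.2 and 98.9 CPM in gRNA and 123.3, 124.2 and 133.3 CPM in control libraries of batch 2, against 137.9, 135.5 and 158.2 CPM in gRNA and 131.8, 162.1 and 161.5 CPM in control libraries of batch 1. It was the only one of the 10 whose batches overlapped, through control library 6 of batch 2 and control library 1 of batch 1. The log2 fold change of Sesn2 was −0.35 (SE 0.08, interval −0.52 to −0.17, adjusted p = 0.00183 by edgeR), or 1.27-fold lower, and it did not pass in control libraries alone (−0.24, adjusted p = 0.133).

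**Figure D2:**
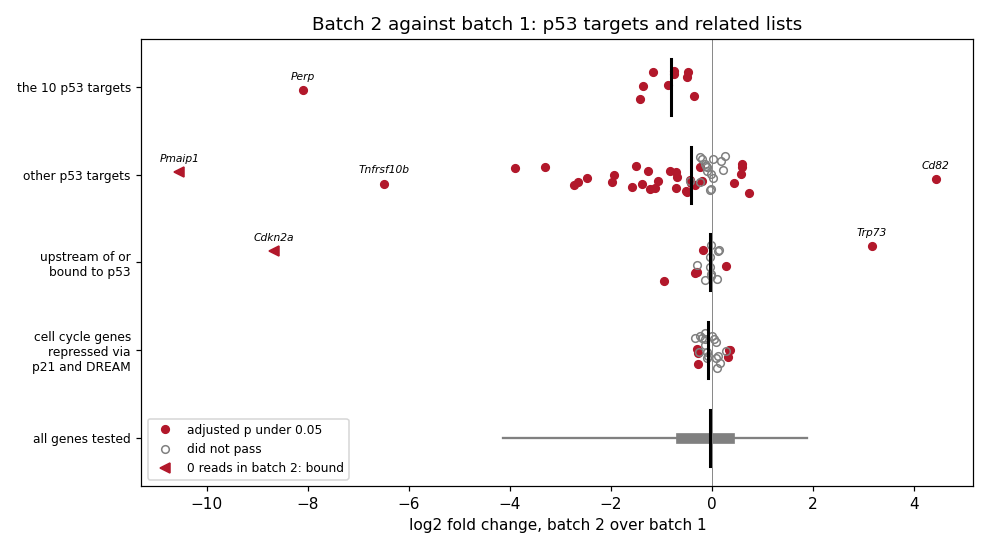
Log2 fold change of batch 2 over batch 1 for the 10 p53 targets, other p53 targets, genes upstream of or bound to p53, and cell cycle genes repressed through p21 and the DREAM complex; points are genes, black bars are medians, and triangles are bounds for genes with 0 reads in batch 2. The bottom row gives all genes tested, with the 25% to 75% range thick (−0.60 to 0.35) and the 5% to 95% range thin (−4.14 to 1.89). The median of the 10 genes lies at −0.80, that of other p53 targets at −0.40, and those of the other 2 lists near 0.

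Other direct p53 targets moved in both directions between the batches. Of 50 listed, 49 were tested, 27 were lower in batch 2, 6 were higher and 16 did not pass, with a median log2 fold change of −0.40 against −0.03 over all genes. Pmaip1, Tnfrsf10b and Sfn passed the filter through batch 1 alone and so had to be lower. Of the other 46, 24 (52.2%) were lower and 6 (13.0%) higher, with a median of −0.29, beside 26.6% lower and 28.2% higher among all genes that passed in each batch. Pmaip1, which encodes the death-inducing BH3-only protein Noxa, had 0 reads in 6 of 6 batch 2 libraries, against 41.3 to 57.5 CPM in batch 1, and was at least 1490-fold lower (floor of 3 counts over the group). The death receptor gene Tnfrsf10b had 54 reads in batch 2 against 4711 in batch 1 and was 93.0-fold lower (counting interval 71.2 to 124). Gdf15, a stress-induced cytokine of the TGF-beta family, had 70 reads in batch 2 against 1010 in batch 1 and was 15.4-fold lower (counting interval 12.1 to 19.9).

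The rises among these other targets included a tetraspanin, a sestrin and a growth arrest gene. Cd82, a tetraspanin of the cell surface, had 24.2, 25.2 and 5.86 CPM in gRNA and 20.6, 20.1 and 27.0 CPM in control libraries of batch 2, against 0.797 to 1.25 CPM in batch 1 (log2 fold change 4.43, SE 0.34). Sesn1, the sestrin related to Sesn2, was at 0.74 (SE 0.12), with 57.0 to 102.7 CPM in batch 2 and 35.8 to 48.8 CPM in batch 1. Gadd45a, which acts in growth arrest and DNA repair, was at 0.60 (SE 0.20). The sestrins thus differed in sign between the batches, Sesn1 higher and Sesn2 lower. A pair of death genes, named here after their values were seen, also differed: Bbc3, which encodes the BH3-only protein Puma, was at −1.93 (SE 0.23), and the pore-forming Bax did not pass, at −0.10 (SE 0.10).

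p53 mRNA itself was not called different between the batches. Trp53 had 120.3, 117.2 and 129.7 CPM in gRNA and 134.8, 124.4 and 106.6 CPM in control libraries of batch 2, against 112.7, 104.0 and 109.1 CPM in gRNA and 108.3, 128.9 and 108.0 CPM in control libraries of batch 1. These ranges overlapped, and the log2 fold change was 0.13 (SE 0.07, interval −0.03 to 0.29, adjusted p = 0.142 by edgeR), opposite in sign to its 10 targets. Trp53 was called higher in batch 2 without control library 2 (0.20, adjusted p = 0.0275), without control library 6 (0.18, adjusted p = 0.024), without both libraries numbered 6 (0.16, adjusted p = 0.0419) and without gRNA library 1 and control library 2 (0.19, adjusted p = 0.0421). Mdm4, the inhibitor of p53 related to Mdm2, averaged 224.1 ± 19.2 CPM in batch 2 and 202.6 ± 11.0 CPM in batch 1 (SD, n = 6 each) and did not pass (0.15, SE 0.07, adjusted p = 0.0857). It was called higher without gRNA library 6 (0.19, adjusted p = 0.0222), without both libraries numbered 6 (0.18, adjusted p = 0.0264) and with no filter on low counts (0.19, adjusted p = 0.048). RNA levels do not measure the p53 protein, whose stability is its main point of control.

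**Figure D3:**
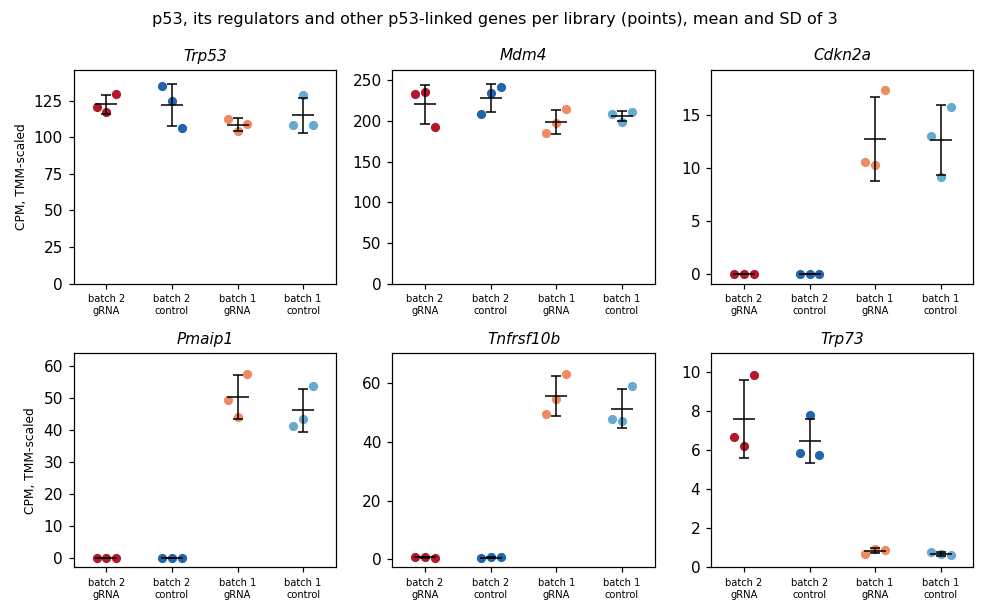
Levels (CPM, TMM-scaled, linear axis) of p53 (Trp53), its inhibitor Mdm4, Cdkn2a, the targets Pmaip1 and Tnfrsf10b, and the p53 relative Trp73; points are libraries, bars are means and SDs of 3 libraries. Trp53 and Mdm4 overlap between the batches, Cdkn2a and Pmaip1 are at 0 in all 6 batch 2 libraries, and Trp73 is higher in batch 2.

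Cdkn2a, the locus of the Mdm2 inhibitor Arf and of the kinase inhibitor p16, had 0 reads in 6 of 6 batch 2 libraries. In batch 1 it had 10.6, 10.3 and 17.3 CPM in gRNA and 13.0, 9.16 and 15.8 CPM in control libraries, so it was at least 405-fold lower in batch 2 (1139 reads in batch 1, floor of 3 counts over the group). Counts per gene do not separate the Arf and p16 transcripts of this locus. Of 19 genes upstream of or bound to p53, Cdkn2a included, 18 were tested, 6 were lower in batch 2, 2 were higher and 10 did not pass, with a median of −0.04. Cdkn2a passed the filter through batch 1 alone and so had to be lower. Of the other 17, 5 (29.4%) were lower, close to the share of 26.6% over all genes that passed in each batch, and 2 (11.8%) were higher. The acetyltransferase gene Crebbp was lower at −0.95 (SE 0.11) and the ubiquitin ligase gene Rchy1 at −0.32 (SE 0.07). Trp73, the p53 relative p73, had 5.75 to 9.85 CPM in batch 2 against 0.627 to 0.934 CPM in batch 1 (3.17, SE 0.19), and the acetyltransferase gene Ep300 was higher at 0.28 (SE 0.11). Over the settings run, the number of these genes called lower ranged down to 3 and the number called higher ranged from 1 to 4.

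Cell cycle genes that p53 represses through p21 and the DREAM complex did not move one way. Of 24 tested, 3 were lower in batch 2, 3 were higher and 18 did not pass, with a median of −0.08, beside 33.1% lower and 28.4% higher over all genes tested. Those lower were Rbl1, the pocket protein p107, at −0.29 (SE 0.09), Cenpf, a kinetochore protein, at −0.27 (SE 0.08), and Ccnb2, cyclin B2, at −0.27 (SE 0.09). Those higher were the phosphatase gene Cdc25c at 0.37 (SE 0.07), the replication helicase subunit Mcm5 at 0.34 (SE 0.11) and the mitotic kinase Aurkb at 0.33 (SE 0.07). Across the settings run, 0 to 6 were called lower and 1 to 6 higher.

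Markers of other cell types also differed between the batches, as did most genes. Over all 17704 genes tested, 33.1% were lower and 28.4% higher in batch 2. Among genes that passed the filter in each batch, 26.6% were lower and 28.2% higher. The short lists below are therefore a description and are not shown to differ from these shares. Astrocyte markers had 3 of 5 lower and 1 higher, with summed levels of 90.0 to 191.6 CPM in batch 2 and 269.0 to 422.6 CPM in batch 1. Neuronal markers had 3 of 5 lower and 1 higher (614.5 to 772.2 CPM in batch 2, 627.7 to 935.5 CPM in batch 1). The higher one was Tubb3, at a log2 fold change of 2.34 (SE 0.21), or 5.05-fold higher in batch 2. Most of the neuronal sum was Map2, which did not pass (−0.13), while Rbfox3 had 0.218 to 1.40 CPM in batch 2 and 8.14 to 21.2 CPM in batch 1. Dcx averaged 0.155 CPM in batch 2 and 2.63 CPM in batch 1, and Snap25 averaged 0.0979 CPM in batch 2 and 3.51 CPM in batch 1. Dcx, Snap25, the microglial gene Csf1r and the endothelial and mural genes Pecam1 and Rgs5 passed the filter through batch 1 alone and so had to be lower. Neural stem and progenitor markers had 4 of 8 lower and 1 higher. Oligodendrocyte lineage markers had 1 of 4 tested lower and 2 higher, with 233.7 to 360.2 CPM in batch 2 and 247.5 to 417.5 CPM in batch 1. Fibroblast markers had 2 of 2 tested higher, with 33.7 to 123.9 CPM in batch 2 and 13.1 to 27.9 CPM in batch 1, where Dcn was at 0. The 2 tested were Col1a1 (1.355, SE 0.529) and Pdgfra (1.204, SE 0.288). Pdgfra is also in the oligodendrocyte lineage list, where it is 1 of the 2 higher, and enters both sums. Microglial markers (2 of 2 tested lower, 1.24 to 2.78 CPM in batch 2 and 2.92 to 6.57 CPM in batch 1) and endothelial and mural markers (2 of 3 tested lower, 3.14 to 7.21 CPM in batch 2 and 2.92 to 7.34 CPM in batch 1) were low in both batches. Pluripotency markers summed to 0.493 to 1.24 CPM in batch 2 and 0.266 to 0.896 CPM in batch 1, with Pou5f1, Zfp42 and Dppa5a at 0 in batch 2 and Zfp42 at 0 in batch 1. The share of reads that fell in no gene was 8.83% to 12.7% in batch 2 libraries and 18.95% to 25.07% in batch 1 libraries. The part of these differences in the lower p53 targets was not tested.

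The comparison of gRNA with control cells, the question of the series, showed no called change in any of the 10 p53 targets. Over both batches with batch as a term, edgeR called 0 of 10, where 0.0% of the 17704 genes tested were called. No other gene passed either, with 230 at an unadjusted p under 0.05, and DESeq2 and limma-voom also called 0, with 216 and 232. The median log2 fold change of the 10 genes was −0.01, as it was over all genes, and 4 lay above and 6 below 0. For the 9 targets other than Perp, the 95% intervals lay between −0.44 and 0.43 on the log2 scale. Intervals of that width leave room for a modest change in single genes, so the values do not show that the groups are alike.

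Cell cycle and feedback targets lay close to 0. The log2 fold change of gRNA over control was −0.07 for Cdkn1a (SE 0.15, interval −0.40 to 0.26) and 0.02 for Mdm2 (SE 0.07, interval −0.14 to 0.17). It was −0.01 for Ccng1 (SE 0.17, interval −0.36 to 0.35), which was the least precise of these 3. In batch 2, Cdkn1a averaged 104.5 ± 18.8 CPM in gRNA and 103.9 ± 33.0 CPM in control libraries, and in batch 1 it averaged 167.0 ± 24.5 CPM in gRNA and 184.5 ± 45.4 CPM in control libraries (SD, n = 3 each).

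The death-linked targets were likewise not called. Eda2r lay at 0.06 (SE 0.18, interval −0.32 to 0.43), Phlda3 at −0.01 (SE 0.11, interval −0.25 to 0.24), Aen at 0.11 (SE 0.15, interval −0.22 to 0.43) and Trp53inp1 at −0.16 (SE 0.13, interval −0.44 to 0.12). Aen averaged 108.1 ± 12.6 CPM in gRNA and 88.2 ± 33.0 CPM in control libraries of batch 2, and 131.2 ± 5.35 CPM in gRNA and 138.9 ± 9.15 CPM in control libraries of batch 1 (SD, n = 3 each). Its value turned to −0.04 without control library 6 and to −0.07 in batch 1 alone, so its positive sign rested on that library. Perp lay at 0.01 over both batches (SE 0.30, interval −0.62 to 0.65), with 1025 reads in batch 1 and 4 in batch 2, all 4 in control libraries. In batch 1 alone it lay at 0.15 (SE 0.14, interval −0.17 to 0.47), and all 3 gRNA libraries lay above all 3 control libraries. In batch 1, 5.03% of all genes had gRNA and control libraries that did not overlap.

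**Figure D4:**
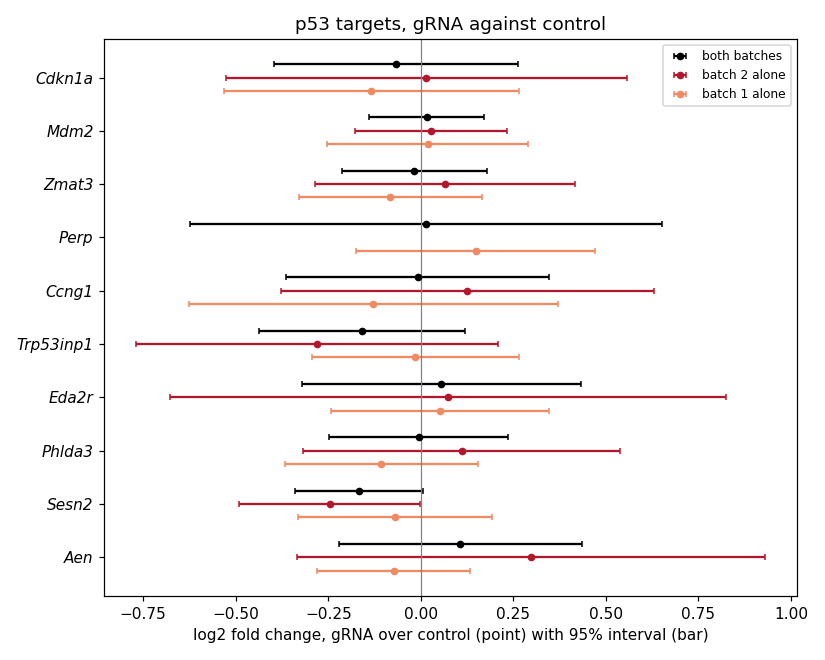
Log2 fold change of gRNA over control for each p53 target over both batches (black) and within batch 2 (red) and batch 1 (orange); points are estimates of edgeR and bars are 95% intervals. Every interval includes 0 except that of Sesn2 in batch 2 (−0.49 to −0.002), whose adjusted p is 0.9976; Perp has no batch 2 value because it did not pass the filter there.

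Sesn2 came nearest to a difference. It averaged 106.2 ± 12.4 CPM in gRNA and 126.9 ± 5.54 CPM in control libraries of batch 2, and 143.9 ± 12.4 CPM in gRNA and 151.8 ± 17.3 CPM in control libraries of batch 1 (SD, n = 3 each). All 3 gRNA libraries of batch 2 lay below all 3 control libraries, and in batch 1 the groups overlapped. The log2 fold change was −0.17 over both batches (SE 0.08, interval −0.34 to 0.01, adjusted p = 0.9998 by edgeR), −0.25 in batch 2 (SE 0.11, interval −0.49 to −0.002, unadjusted p = 0.0484, adjusted p = 0.9976) and −0.07 in batch 1 (SE 0.12, interval −0.33 to 0.19, adjusted p = 1.0). Of all genes tested in batch 2, 5.16% had groups that did not overlap. The value in batch 2 was −0.35 to −0.21 when each library was left out in turn. Zmat3, 2.69-fold lower in batch 2 than in batch 1, lay at −0.02 for gRNA over control (SE 0.09, interval −0.21 to 0.18).

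Within single batches the targets were also not called. In batch 2, 0 of the 9 targets tested and 0.0% of 15647 genes passed in edgeR (116 genes had an unadjusted p under 0.05, and DESeq2 gave 0 and 119). In batch 1, 0 of 10 and 0.0% of 16988 genes passed (147 unadjusted, and DESeq2 gave 0 and 57). The difference of the gRNA effect between the batches was called for 0 of 10 and for 0.0% of 18279 genes (236 unadjusted, and DESeq2 gave 0 and 180). Among the 10, Perp had the smallest unadjusted p for that difference, 0.0118 (adjusted p = 0.9999 in edgeR), and it rests on 0 gRNA reads and 4 control reads in batch 2.

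The related lists gave the same count for gRNA against control. None of the 49 other p53 targets, the 18 genes upstream of or bound to p53 and the 24 cell cycle genes was called. The smallest unadjusted p-values of each list were those of Ikbip, an endoplasmic reticulum protein, at 0.19 (SE 0.08), and Sfn, the 14-3-3 protein sigma, at −0.68 (SE 0.34), of Trp73 at 0.25 (SE 0.18) and the checkpoint kinase Chek1 at 0.26 (SE 0.19), and of Rbl1 at 0.16 (SE 0.09) and the transcription factor Mybl2 at 0.24 (SE 0.17). Trp53 lay at −0.04 (SE 0.07), Mdm4 at −0.05 (SE 0.07) and Cdkn2a at 0.001 (SE 0.29).

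Within each batch, single libraries carried high or low levels of many p53 targets at once, in both treatments. How these libraries rank over all genes was not counted. The ranks given here are thus not shown to be particular to p53 targets. In batch 2, gRNA library 4 and control library 4 lay above the batch mean for all 9 targets other than Perp, with median deviations of 0.28 and 0.26 on the log2 scale. These libraries were the highest pair for 6 of the 9, namely Cdkn1a, Mdm2, Zmat3, Ccng1, Eda2r and Aen. Control library 6 was the lowest library for 7 of the 9, with a median deviation of −0.34, and the highest for the other 2, Trp53inp1 at 0.38 and Sesn2 at 0.20. Library gRNA 6 was the lowest for those same 2 genes, with Trp53inp1 at −0.58. Control library 6 also held the highest summed level of batch 2 for 7 of the 8 marker lists, neural stem and progenitor markers included (1547.8 CPM), and the lowest for microglial markers. Its fibroblast sum was 123.9 CPM, against 33.7 CPM in gRNA library 6. The part of these markers in its p53 target levels was not tested.

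In batch 1 the largest deviation was 0.53, for Ccng1 in control library 2. Control library 2 was the highest for 7 of the 9 targets (median deviation 0.15) and gRNA library 2 the lowest for 6 (−0.16). Libraries gRNA 1 and control 2 were the highest pair for Cdkn1a, Ccng1 and Phlda3, and these held the fewest gene counts of the 12 (10515276 and 8414028) and the lowest shares of reads assigned to no gene in batch 1 (20.6% and 18.95%). Eda2r went another way, with gRNA library 3 and control library 3 its highest pair. The spread within batch 2 was widest for Aen, whose highest library was 2.29 times its lowest, and for Eda2r, at 2.26 times. Whether depth or the share of unassigned reads had a part in these deviations was not tested.

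**Figure D5:**
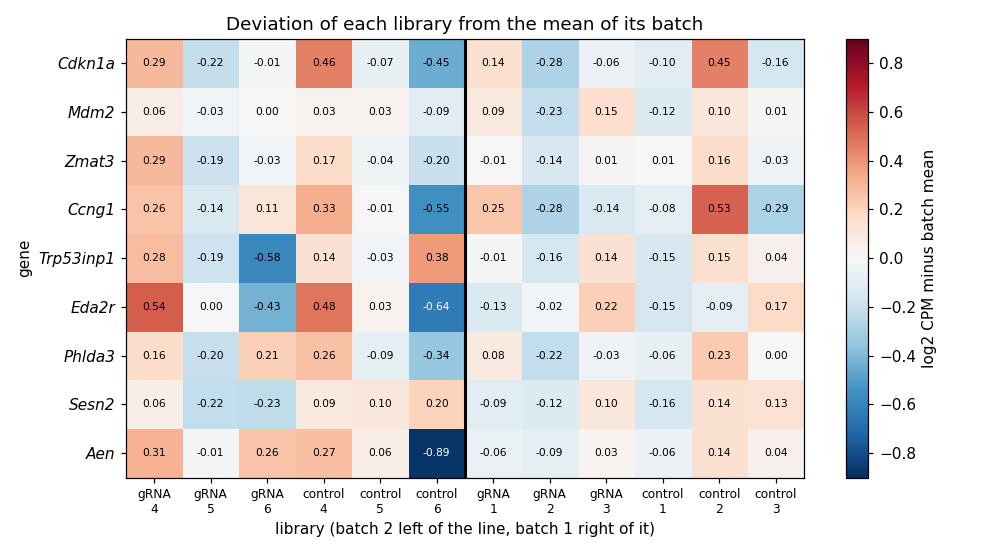
Deviation of each library from the mean of its batch (log2 scale, colour and printed value) for the 9 p53 targets detected in both batches. Columns 4 of both treatments are above the mean for all 9 targets, and control library 6 is lowest for 7 of them, at −0.89 for Aen.

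Ribosome footprints of the 10 targets were not analysed here. The deposited table of ribosomal P-site positions lists transcripts without gene names and names its libraries in a way that matches no label, so neither the genes nor the groups could be assigned.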

How the data were processed

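Libraries of total RNA from mouse neural stem cells were stranded and depleted of ribosomal RNA, per the labels' protocols. The submitters' processing notes name Trimmomatic, STAR, SAMtools, HTSeq and GRCm39, without versions or the strand setting of the counting. Each deposited file holds the authors' raw counts for 57132 Ensembl genes in 1 of 12 libraries, not normalized. As the strand setting is unknown, overlapping genes and their antisense partners may share reads. Lines for unassigned reads were left out of library sizes; ambiguous reads were 3.22% to 4.06% and non-unique alignments 1.87% to 2.77%. Symbols matched 90.8% of identifiers.

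Counts were fitted with edgeR 4.0.16 in R 4.3.3 over all genes: filterByExpr with a minimum count of 10, TMM scaling, and quasi-likelihood tests called at a Benjamini-Hochberg adjusted p under 0.05, with batch and treatment as terms (also each batch alone, and their interaction). The batch 2 over batch 1 difference is the batch term of the same fit. Ratios of genes near 0 carry exact 95% counting intervals, or a floor of 3 counts over the group. DESeq2 1.42.0, limma-voom (limma 3.58.1), RLE scaling, other filters, no batch term and leaving out each library were alternatives. Leaving out gRNA and control libraries 6, or gRNA library 1 with control library 2, was added after seeing the data, as were DESeq2 and leaving out libraries within a batch. The fits were tested on simulated counts. The members and lists were chosen with earlier results of these data known. Named were all 10 targets, Trp53, Mdm4 and Cdkn2a, up to 3 largest rises and falls per list between batches and the 2 smallest p-values per list for gRNA over control. Promoter windows are RefSeq's, on GRCm38.p6, and coordinates are of that build. Groups and batches are those of the labels. Footprint P-sites were not used. Figures used Python with matplotlib.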

Additional observations from a re-analysis of the deposited data

Results flagged for a closer look

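The 9 p53 targets detected in both batches, Trp53 and Mdm4 were screened for a library far from the other libraries of its treatment, on deviations of log2(CPM + 0.1) from the batch mean over the 6 libraries of a treatment. Of 22 screens, 2 met the criterion, and chance flags about 1 in 20 groups, or about 1.1 of 22. Aen in control library 6 lay at −0.885, with the other 5 control libraries between −0.055 and 0.274. Sesn2 in control library 1 lay at −0.159, with the other 5 control libraries between 0.09 and 0.203.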

How the results depend on the processing

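No gRNA effect on the 10 p53 targets was called under any setting run, and leaving out each library gave 0 called genes over both batches, within each batch and for the difference between batches; without a filter on low counts 1 gene was called over both batches. Small gRNA effects changed sign. In batch 2 alone the log2 fold change was 0.0152 for Cdkn1a, 0.0649 for Zmat3, 0.126 for Ccng1 and 0.11 for Phlda3, and in batch 1 alone −0.0735 for Aen. Without gRNA library 1 and control library 2 it was 0.0201 for Zmat3, −0.0978 for Perp, 0.0647 for Ccng1 and 0.0286 for Phlda3, without gRNA and control libraries 6 −0.0526 for Aen, and with limma-voom 0.0217 for Ccng1. Leaving out each library gave ranges of −0.157 to 0.0433 for Cdkn1a, −0.0176 to 0.0634 for Mdm2, −0.0895 to 0.0219 for Zmat3, −0.0542 to 0.0658 for Perp, −0.112 to 0.122 for Ccng1, −0.0715 to 0.18 for Eda2r, −0.0752 to 0.0577 for Phlda3 and −0.035 to 0.184 for Aen. Between batches, 6730 genes were called in control libraries alone, which are fewer samples, against 10879 in all, and 10528 to 12074 when each library was left out, with 9 to 10 of the 10 targets called lower (8 in control libraries alone). The cause of the sign changes was not tested. Other ways of counting footprints (transcript choice, footprint length, codons near start and stop) were not run. No paired analysis was possible because the RNA-seq labels carry no replicate numbers (those used here follow accession order and only name a library), and the numbered footprint libraries match no name in the deposited table. In batch 2, 4 reads of Perp limit any statement on its gRNA effect there.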
